A study of Mus musculus with 18 samples.

Results

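The mRNA levels of 28 genes of sterol and fatty acid synthesis were compared between 8 p95HER2 tumours and 10 EV tumours, all grown in mice from PB2 cells. The genes were chosen by their role in the 2 pathways. Of the 28, 21 serve sterol synthesis and 7 serve fatty acid synthesis, out of 54532 genes in the count table. All 28 passed the filter on low counts, as 17123 genes in all did. PB2 is a mouse breast cancer cell line, so every tumour descends from 1 line. The p95HER2 tumours overexpressed p95HER2, a shortened HER2 receptor kinase without most of the extracellular part. The controls have the genotype EV, an abbreviation that the labels leave unexplained. Mice of both groups received the doxycycline diet DOX625. The labels give no host strain, sex or age, no promoter for the transgene and no number of animals, so the p-values reflect only how far these tumours spread, which may be technical.

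Library totals were 32686558 to 34804640 counts in p95HER2 tumours and 35030920 to 38464541 counts in EV tumours and did not overlap. Tumour tag numbers also ran by group, and the tag of p95HER2 1 lay far below all others. Reads under mouse Erbb2, which encodes HER2, were 158 ± 37.7 CPM (counts scaled to library size) in p95HER2 tumours and 67.9 ± 4.64 CPM in EV tumours (SD, n = 8 and 10). Epithelial content was read from 8 epithelial genes such as Epcam and Krt8. Their mean log2(CPM + 0.5) was 7.28 ± 0.15 in p95HER2 tumours and 7.26 ± 0.21 in EV tumours. These genes do not tell breast from other epithelia, so the labelled breast cancer origin was not tested.

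Cells build cholesterol from acetyl-CoA through mevalonate, squalene and lanosterol, and they build fatty acids from the same precursor through malonyl-CoA. The membrane-bound transcription factors SREBP-2 and SREBP-1, encoded by Srebf2 and Srebf1, are released from the endoplasmic reticulum when sterols are scarce. SREBP-2 mainly drives the sterol genes and SREBP-1 mainly the fatty acid genes, while Insig1 holds both in the membrane when sterols are plentiful. Adipocytes, which fill the mammary fat pad, also express the fatty acid genes, so these genes were read beside adipocyte markers.

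SREBPs bind DNA together with NF-Y, a factor that recognises the letters CCAAT. Promoters from RefSeq (build GRCm38.p6), spanning 250 bases before to 50 bases after a gene's start, were matched for 22 of the 28 genes. Sqle, Fdps, Fdft1, Stard4, Scd1 and Scd2 had no entry. The letters CCAAT, on either strand, stood in the promoters of 16 of the 17 matched sterol genes and of 3 of the 5 matched fatty acid genes, against 41.1% of all 27025 genes in the table. The letters TCACNCCAC, a form of the sterol regulatory element, stood in the promoter of 1 sterol gene, Hmgcs1, and in those of 1.44% of all genes in the table. A stretch of 150 bases before the start is printed for 6 genes, 5′ to 3′ on the gene's own strand, to show these letters in genes of the mevalonate stage, of the steps after lanosterol and of fatty acid synthesis. Capitals mark CCAAT or, where it lies on the other strand, ATTGG, and in Hmgcs1 also the sterol regulatory element. Matches on the 2 strands that overlap, as in Fasn, were counted apart. The stretches lie at chr13:119690201-119690350 (Hmgcs1, plus strand), chr5:114444119-114444268 (Mvk, plus), chr8:122443423-122443572 (Mvd, minus), chrX:72918371-72918520 (Nsdhl, plus), chrX:8193513-8193662 (Ebp, minus) and chr11:120824548-120824697 (Fasn, minus).
Hmgcs1: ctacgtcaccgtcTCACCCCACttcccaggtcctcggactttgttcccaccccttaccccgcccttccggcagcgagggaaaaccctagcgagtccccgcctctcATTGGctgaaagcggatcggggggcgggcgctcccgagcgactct
Mvk: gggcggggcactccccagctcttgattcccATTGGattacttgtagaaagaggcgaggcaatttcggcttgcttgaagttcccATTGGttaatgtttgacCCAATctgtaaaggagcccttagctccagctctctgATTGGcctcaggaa
Mvd: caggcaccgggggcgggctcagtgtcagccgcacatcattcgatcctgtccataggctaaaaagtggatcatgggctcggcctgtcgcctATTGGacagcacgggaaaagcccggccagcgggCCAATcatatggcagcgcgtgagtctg
Nsdhl: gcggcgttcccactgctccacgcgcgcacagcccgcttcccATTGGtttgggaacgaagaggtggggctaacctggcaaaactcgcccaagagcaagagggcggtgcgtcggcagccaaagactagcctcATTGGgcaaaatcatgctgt
Ebp: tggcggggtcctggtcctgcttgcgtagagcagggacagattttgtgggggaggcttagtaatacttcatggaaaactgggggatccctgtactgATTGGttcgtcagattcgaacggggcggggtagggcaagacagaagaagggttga
Fasn: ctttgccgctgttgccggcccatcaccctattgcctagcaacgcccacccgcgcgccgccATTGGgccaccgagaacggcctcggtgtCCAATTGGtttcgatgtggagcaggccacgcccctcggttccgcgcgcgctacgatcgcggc
Mvk, the mevalonate kinase gene, held 4 matches to CCAAT in its stretch, Fasn held 3, Mvd and Nsdhl held 2 each, and Hmgcs1 and Ebp held 1 each. These are matches of letters and show no binding.

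Sterol synthesis mRNA did not pass the test between p95HER2 and EV tumours for any of the 21 genes. Differences were tested with edgeR's quasi-likelihood test, and a gene was called when its p-value, adjusted over all 17123 genes by the Benjamini-Hochberg method, was under 0.05. None of the 21 was called in either direction, while 10.2% of all genes tested were called, 5.73% higher and 4.45% lower in p95HER2 tumours. At an unadjusted p under 0.05 there were 2 sterol genes, Idi1 and Hsd17b7, and 4502 of all 17123 genes tested. The log2 fold changes, p95HER2 minus EV throughout, ran from -0.43 (Fdps) to 0.21 (Hsd17b7), with 18 of 21 below 0 and a median of -0.07. Over all genes tested 52.3% were below 0 and the median was -0.01. The groups overlapped for all 28 genes of both pathways, as they did for all but 0.788% of all genes tested, so nothing is read from that count. The summed level of the 21 genes was 1409 to 2129 CPM in p95HER2 tumours and 1378 to 2165 CPM in EV tumours.

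**Figure D1:**
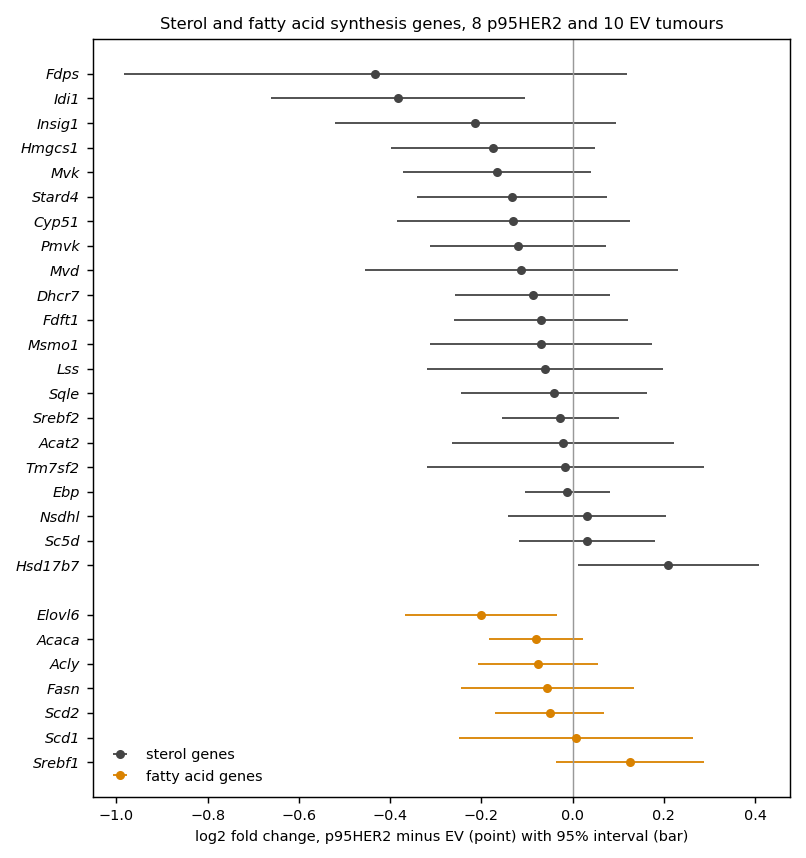
Log2 fold change of each gene, p95HER2 minus EV, from edgeR's fit (point) with its 95% interval (bar), for 21 sterol genes (grey, above) and 7 fatty acid genes (orange, below), from 8 p95HER2 and 10 EV tumours. The intervals of Idi1, Hsd17b7 and Elovl6 leave out 0, and none of the 28 genes passed the adjusted threshold.

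At the head of the pathway, Acat2 makes acetoacetyl-CoA and Hmgcs1 makes HMG-CoA, the substrate from which mevalonate is formed. Acat2 had a lowest, median and highest level of 46.9, 57.8 and 75.3 CPM in p95HER2 tumours, against 40.4, 58.8 and 77.1 CPM in EV tumours. Hmgcs1 had 113, 138 and 193 CPM in p95HER2 tumours, against 130, 162 and 204 CPM in EV tumours. The log2 fold change was -0.02 for Acat2 (adjusted p = 0.934) and -0.18 with an SE of 0.11 for Hmgcs1 (adjusted p = 0.314). The genotypes overlapped over most of the range of both genes. Of the 50-base stretches of Acat2's transcripts, 40.7% also occur in transcripts of other genes, chiefly Acat3, so its count is uncertain.

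Mvk (ENSMUSG00000041939, chromosome 5, 114444269 to 114460591), Pmvk and Mvd turn mevalonate into isopentenyl diphosphate by phosphorylation and decarboxylation. Mvk had a lowest, median and highest level of 19.8, 21.6 and 28.03 CPM in p95HER2 tumours, against 17.6, 26.0 and 31.7 CPM in EV tumours. Its mean was 22.7 ± 3.04 CPM in p95HER2 tumours and 25.4 ± 4.26 CPM in EV tumours (SD, n = 8 and 10). In 7 of 8 p95HER2 tumours Mvk lay below the EV median, but the lowest tumour of all was an EV tumour. The log2 fold change of Mvk was -0.17 with an SE of 0.10 (adjusted p = 0.299), a ratio of 0.891 with a 95% interval of 0.773 to 1.03. Pmvk (log2 fold change -0.12) and Mvd (-0.11) had adjusted p-values of 0.445 and 0.713.

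Idi1 (ENSMUSG00000058258, chromosome 13, 8885501 to 8892451) encodes the isomerase that turns isopentenyl diphosphate into its allylic partner, and of the 28 genes it had the smallest adjusted p. Its lowest, median and highest level was 20.46, 26.9 and 37.2 CPM in p95HER2 tumours, against 24.6, 36.7 and 49.4 CPM in EV tumours. The mean was 27.9 ± 5.01 CPM in p95HER2 tumours and 36.4 ± 8.24 CPM in EV tumours (SD, n = 8 and 10). Only p95HER2 7 stood above the EV median, and 5 EV tumours lay within the p95HER2 range. The log2 fold change was -0.38 with an SE of 0.13 and an adjusted p of 0.0725, a ratio of 0.767 with a 95% interval of 0.632 to 0.930. The adjusted p of Idi1 came under the threshold with DESeq2 (0.0346) and when p95HER2 7 (0.0404), EV 1 (0.048) or EV 8 (0.031) was left out. Transcripts of other genes, mostly unnamed predicted genes, share 28.6% of its 50-base stretches, so its count is uncertain.

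Fdps joins these units into farnesyl diphosphate and had the largest difference and the widest interval of the 28 genes. It had a lowest, median and highest level of 1.5, 2.11 and 4.01 CPM in p95HER2 tumours, against 1.35, 2.92 and 5.60 CPM in EV tumours. Its log2 fold change was -0.43 with an SE of 0.26 (adjusted p = 0.313). Fdps also had the lowest level per transcript length, a mean of 2.17 TPM (CPM corrected for length and rescaled) over all tumours, and 64.1% of its 50-base stretches recur in 8 other genes. How far those shared stretches took reads from Fdps was not tested.

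The squalene stage followed the same picture of overlap. Fdft1, squalene synthase, had a lowest, median and highest level of 74.0, 84.4 and 110 CPM in p95HER2 tumours, against 70.3, 90.2 and 108 CPM in EV tumours. Sqle, the squalene epoxidase that is a rate-controlling step, had 104, 123 and 164 CPM in p95HER2 tumours, against 93.1, 135 and 156 CPM in EV tumours. Lss closes squalene epoxide into lanosterol and had 45.6, 53.8 and 77.2 CPM in p95HER2 tumours, against 40.4, 60.5 and 75.3 CPM in EV tumours. For these 3 genes the highest tumour was p95HER2 7 and the lowest EV 1, and the log2 fold changes lay between -0.07 and -0.04, with adjusted p-values from 0.674 to 0.836. Fdft1 overlaps the far more abundant Ctsb on the opposite strand, and no source used here gives the strand setting of the counts, so the count of Fdft1 is uncertain.

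From lanosterol onward, Cyp51 removes the first methyl group and had the highest level per length of the sterol enzymes, a mean of 234 TPM over all tumours. Its lowest, median and highest level was 234, 308 and 399 CPM in p95HER2 tumours, against 269, 323 and 471 CPM in EV tumours, with a log2 fold change of -0.13 (adjusted p = 0.542). Cyp51 overlaps Akap9 on the opposite strand, so its count is uncertain as well. Msmo1, Nsdhl and Hsd17b7 remove the remaining methyl groups, and Tm7sf2 reduces the ring. Msmo1, Nsdhl and Tm7sf2 had log2 fold changes of -0.07, 0.03 and -0.02, with adjusted p-values from 0.756 to 0.964.

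Hsd17b7 (ENSMUSG00000026675, chromosome 1, 169949535 to 169969241), the keto reductase of that step, was the sterol gene with the most positive difference. It had a lowest, median and highest level of 17.1, 24.2 and 29.6 CPM in p95HER2 tumours, against 17.2, 19.8 and 25.6 CPM in EV tumours. The mean was 23.8 ± 3.91 CPM in p95HER2 tumours and 20.6 ± 2.80 CPM in EV tumours (SD, n = 8 and 10). All p95HER2 tumours except p95HER2 2 stood above the EV median. The log2 fold change of Hsd17b7 was 0.21 with an SE of 0.10 (unadjusted p = 0.0392, adjusted p = 0.164), a ratio of 1.16 with a 95% interval of 1.01 to 1.33. Over 31 alternative settings its log2 fold change ran from 0.0079 to 0.27.

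The closing steps were carried by Ebp, a sterol isomerase, Sc5d, a desaturase, and Dhcr7, the last reductase of the pathway. Ebp was the steadiest of the 28 genes. Its lowest, median and highest level was 44.9, 46.1 and 51.0 CPM in p95HER2 tumours, against 41.4, 47.8 and 52.0 CPM in EV tumours, and the 95% interval of its ratio ran from 0.930 to 1.06. Sc5d had a log2 fold change of 0.03 (adjusted p = 0.824) and Dhcr7 one of -0.09 (adjusted p = 0.534), with a 95% interval of the ratio of 0.836 to 1.06 for Dhcr7.

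Among the regulators, Srebf2 (ENSMUSG00000022463, chromosome 15, 82147181 to 82205379) had a lowest, median and highest level of 269, 297 and 373 CPM in p95HER2 tumours, against 258, 303 and 343 CPM in EV tumours. Its mean was 299 ± 34.0 CPM in p95HER2 tumours and 305 ± 23.9 CPM in EV tumours (SD, n = 8 and 10), with a log2 fold change of -0.03 and an SE of 0.06 (adjusted p = 0.827). The 95% interval of its ratio ran from 0.898 to 1.07. Insig1, itself a target of SREBP, had 80.3, 106 and 135 CPM in p95HER2 tumours, against 70.2, 126 and 164 CPM in EV tumours, with a log2 fold change of -0.21 (adjusted p = 0.379). Stard4, which carries sterol between membranes, had 53.1, 56.7 and 80.8 CPM in p95HER2 tumours, against 47.5, 68.0 and 78.0 CPM in EV tumours, with a log2 fold change of -0.13 (adjusted p = 0.427).

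**Figure D2:**
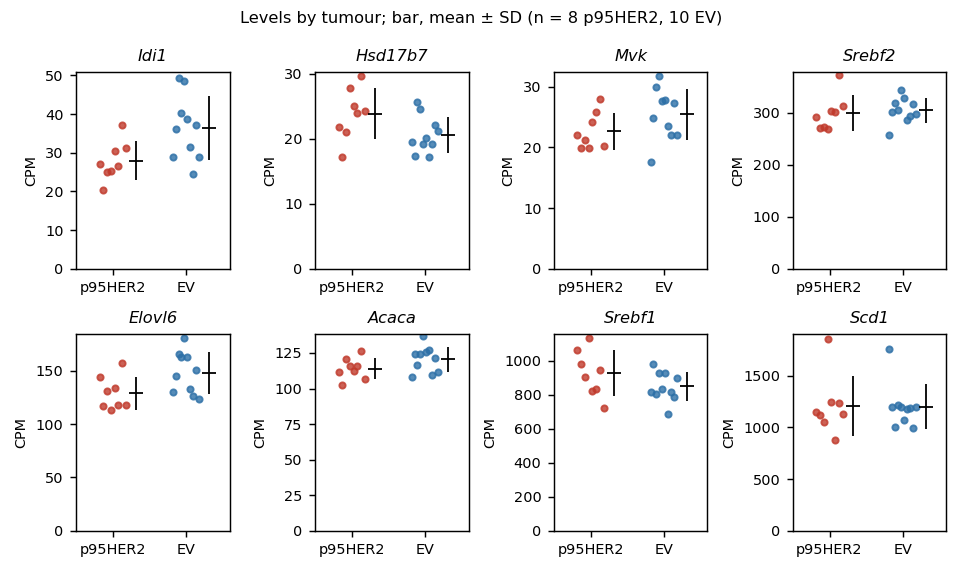
CPM of 8 genes in each tumour (points, p95HER2 left in red, EV right in blue) with the mean ± SD of each group (bar beside the points, n = 8 and 10), each axis starting at 0. The groups overlap in every panel, and 1 tumour of each group stands above the rest for Scd1.

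The sterol genes varied together from tumour to tumour within each genotype. In p95HER2 7 all 21 stood above their mean over the 18 tumours, by a mean of 0.28 in log2(CPM + 0.5), and 7 of them had their highest level there. The same held for all 21 genes in EV 3 (mean deviation 0.31) and EV 9 (0.26), and for 20 of 21 in EV 4 (0.30). At the other end, none of the 21 stood above its mean in p95HER2 1 (mean deviation -0.18) or in EV 1 (-0.38), and 1 did in p95HER2 2 (-0.31). EV 1 held the lowest level of 13 of the 21 genes and p95HER2 2 that of 6. Tumours at both ends thus occurred in both genotypes. EV 1 also had the lowest skeletal muscle marker level of all tumours (3.07, against 6.79 to 8.76 in the other EV tumours). Its adipocyte (2.97), skin (1.58) and epithelial (7.77) marker levels were the highest of all tumours. The part of these markers in its sterol levels was not tested.

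**Figure D3:**
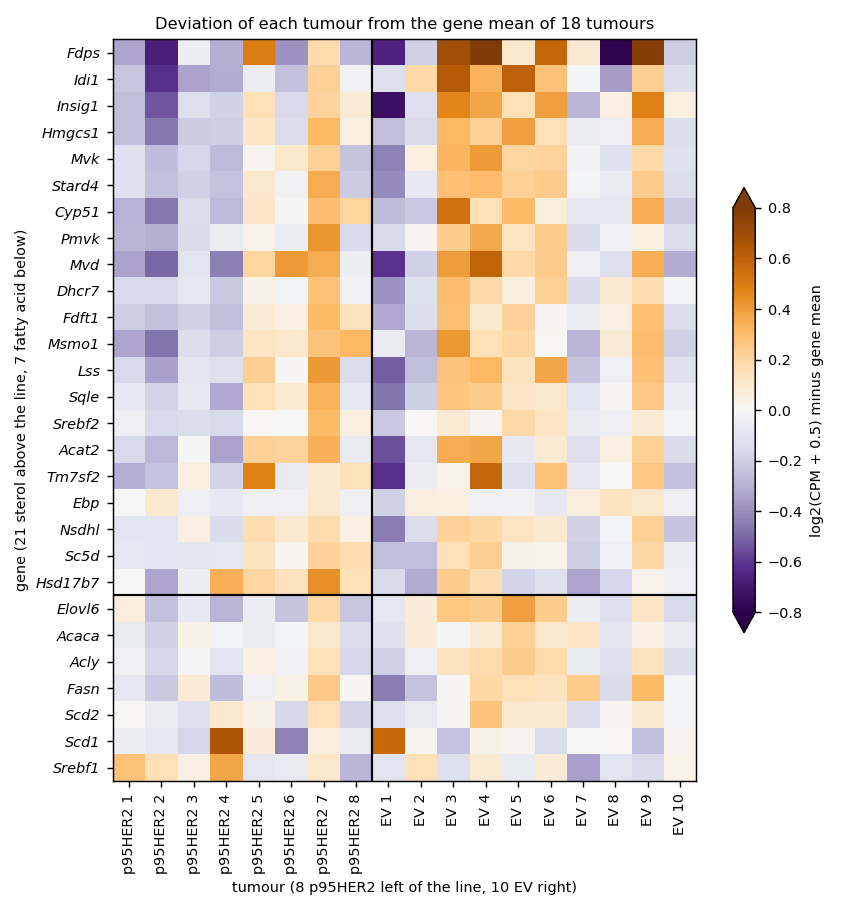
Heat map of log2(CPM + 0.5) minus the gene's mean over 18 tumours, for 21 sterol genes (above the line) and 7 fatty acid genes (below), with 8 p95HER2 tumours left and 10 EV tumours right; orange is above the mean, purple below, and colours end at ±0.8. Whole columns lie on 1 side of the mean for the sterol genes, as in p95HER2 7, EV 3 and EV 9 above it and p95HER2 1 and EV 1 below it, and in p95HER2 2 all but 1 lie below it.

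Fatty acid synthesis mRNA did not pass the test between the genotypes either. None of the 7 genes was called, beside 10.2% of all genes tested. Elovl6 alone had an unadjusted p under 0.05, as 4502 of all 17123 genes tested had. The log2 fold changes ran from -0.20 (Elovl6) to 0.13 (Srebf1), with a median of -0.06. The summed level was 4204 to 5789 CPM in p95HER2 tumours and 4453 to 5405 CPM in EV tumours. Per transcript length Scd2 and Scd1 had the highest levels of all 28 genes, with means of 1175 and 771 TPM over all tumours, followed by Srebf1 with 492 TPM. Fasn and Elovl6 had 68.2 and 68.1 TPM, Acly had 122 TPM and Acaca had 21.6 TPM.

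Acly, which frees acetyl-CoA from citrate, had a lowest, median and highest level of 182, 201 and 229 CPM in p95HER2 tumours, against 180, 212 and 243 CPM in EV tumours. Acaca (ENSMUSG00000020532, chromosome 11, 84129672 to 84401651), the carboxylase that makes malonyl-CoA, had 103, 114 and 126 CPM in p95HER2 tumours, against 108, 123 and 137 CPM in EV tumours. Its mean was 114 ± 7.43 CPM in p95HER2 tumours and 120 ± 9.02 CPM in EV tumours (SD, n = 8 and 10), with a log2 fold change of -0.08 and an SE of 0.05 (adjusted p = 0.312). In 7 of 8 p95HER2 tumours Acaca lay below the EV median, within a ratio whose 95% interval was 0.881 to 1.02. A predicted gene, Gm5182, shares 49.1% of its 50-base stretches, so its count is uncertain. Fasn, the synthase that assembles palmitate, had 197, 234 and 282 CPM in p95HER2 tumours, against 173, 249 and 293 CPM in EV tumours, with a log2 fold change of -0.06 (adjusted p = 0.748).

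Elovl6 (ENSMUSG00000041220, chromosome 3, 129532355 to 129638495) lengthens palmitate to stearate. It had a lowest, median and highest level of 113, 125 and 157 CPM in p95HER2 tumours, against 124, 148 and 181 CPM in EV tumours. The mean was 129 ± 15.6 CPM in p95HER2 tumours and 148 ± 19.6 CPM in EV tumours (SD, n = 8 and 10). In 7 of 8 p95HER2 tumours Elovl6 lay below the EV median, again all except p95HER2 7. The log2 fold change of Elovl6 was -0.20 with an SE of 0.08 (unadjusted p = 0.021, adjusted p = 0.115), a ratio of 0.870 with a 95% interval of 0.775 to 0.977.

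The desaturases Scd1 and Scd2 put a double bond into saturated fatty acids. Scd1 (ENSMUSG00000037071, chromosome 19, 44394455 to 44407879) had a lowest, median and highest level of 877, 1139 and 1854 CPM in p95HER2 tumours, against 993, 1190 and 1762 CPM in EV tumours. Its mean was 1206 ± 286 CPM in p95HER2 tumours and 1201 ± 215 CPM in EV tumours (SD, n = 8 and 10), with a log2 fold change of 0.01 and an SE of 0.12 (adjusted p = 0.983). One tumour of each genotype held the top value, p95HER2 4 with 1854 CPM and EV 1 with 1762 CPM, and the next highest tumour had 1242 CPM. These 2 tumours had the lowest skeletal muscle marker level of their groups, 4.53 in p95HER2 4 and 3.07 in EV 1, and adipocyte marker levels of 0.89 and 2.97. Scd2 ranged from 1800 to 2271 CPM in p95HER2 tumours and from 1848 to 2467 CPM in EV tumours, with a log2 fold change of -0.05 (adjusted p = 0.625). Scd1 and Scd2 share few 50-base stretches with each other or their neighbours, 1.66% and 4.01%.

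Srebf1 (ENSMUSG00000020538, chromosome 11, 60199089 to 60222581) had a lowest, median and highest level of 724, 925 and 1135 CPM in p95HER2 tumours, against 688, 827 and 979 CPM in EV tumours. The mean was 926 ± 134 CPM in p95HER2 tumours and 849 ± 85.1 CPM in EV tumours (SD, n = 8 and 10). Srebf1 stood above the EV median in 6 of 8 p95HER2 tumours, and p95HER2 4 was the highest of all. The log2 fold change was 0.13 with an SE of 0.08 (adjusted p = 0.316), a ratio of 1.09 with a 95% interval of 0.976 to 1.22. With the macrophage marker level as a covariate it was -0.04 (adjusted p = 0.905). Srebf1 overlaps Rai1 on the opposite strand, which was the less abundant of the pair.

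Adipocyte content, read from 12 marker genes that hold none of the 28, was lower in p95HER2 tumours. The marker level, the mean of log2(CPM + 0.5) over the list, was 1.199 ± 0.34 in p95HER2 tumours and 2.003 ± 0.53 in EV tumours (SD, n = 8 and 10; adjusted p = 0.00751, two-sided exact permutation test over 43758 assignments, adjusted over 9 marker lists). In bulk tumours fewer adipocytes and less RNA per adipocyte cannot be told apart. Of the 12 markers 10 were tested and 6 fell, namely Adipoq, Plin1, Plin4, Cidec, Fabp4 and Cfd, beside 4.45% of all genes tested. The log2 fold changes of the 10 were below 0 for 9 and above 0 for 1 (0.24). Some of the 6 were near the floor, as Plin1 with 0 to 18 counts in p95HER2 tumours. Adipoq, which encodes the adipocyte hormone adiponectin, had a lowest, median and highest level of 0.0302, 0.366 and 0.749 CPM in p95HER2 tumours, against 0.460, 0.960 and 8.36 CPM in EV tumours. The summed level of the 12 markers was 55.6 to 216 CPM in p95HER2 tumours and 151 to 417 CPM in EV tumours. Car3 alone gave most of the highest sums, with 165 CPM in p95HER2 3 and 339 CPM in EV 9. In EV 1, whose adipocyte level was the highest, Car3 was 38.4 CPM, so the sum does not rank the tumours by adipocyte level. The skeletal muscle marker level was highest in EV 9 (8.76) and lowest in EV 1 (3.07). In p95HER2 4, with the lowest muscle level of its group (4.53), Car3 was 15.2 CPM. The part of muscle in Car3, and through it in the adipocyte level and sum, was not tested. EV 1 and EV 2 stood apart, with 8.36 and 5.48 CPM of Adipoq and adipocyte levels of 2.97 and 2.82, against levels of at most 2.19 in the other EV tumours. For scale, the 7 fatty acid genes summed to 4204 CPM or more in every tumour.

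Macrophage markers (5.29 ± 0.37 in p95HER2 tumours and 5.94 ± 0.35 in EV tumours, adjusted p = 0.00751) and skin markers (0.19 ± 0.10 in p95HER2 tumours and 0.47 ± 0.39 in EV tumours, adjusted p = 0.0121) were also lower in p95HER2 tumours by the exact permutation test. The muscle (adjusted p = 0.354), fibroblast (0.0835), endothelial (0.524), epithelial (0.965), milk (0.999) and proliferation (0.193) lists did not pass. Without EV 1 the muscle difference moved to -1.32, from -0.84 with all tumours, and passed (exact permutation, adjusted p = 0.00916). The fibroblast list passed without p95HER2 6 (0.0379) or EV 3 (0.0202). The skin list no longer passed without p95HER2 1 (0.0534), p95HER2 5 (0.0592) or p95HER2 7 (0.0572), and its difference was -0.16 without EV 1, against -0.28 with all tumours.

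With genotype and adipocyte level in 1 edgeR fit, none of the 28 genes was called for the adipocyte level. Only 0.0584% of all genes tested were, so nothing about the 28 is read from that count. The 10 genes called all increased with it. Of these, 5 were adipocyte markers that went into the level itself, so their calls are not read as results. Per unit of adipocyte level the log2 difference was -0.24 with an SE of 0.09 for Fasn, -0.14 with an SE of 0.06 for Scd2 and -0.13 with an SE of 0.09 for Elovl6. It was -0.12 with an SE of 0.07 for Acly, -0.06 with an SE of 0.06 for Acaca, 0.03 with an SE of 0.09 for Srebf1 and 0.08 with an SE of 0.14 for Scd1. Of the 7 coefficients 5 were thus negative (median -0.12, smallest adjusted p 0.679), that is, 5 of 7 estimates ran against the adipocyte markers. All 21 sterol coefficients were negative too (median -0.25, smallest adjusted p 0.565), beside 50.4% of all genes tested and a median of -0.0012 over all genes. With EV 1 and EV 2 left out, the coefficient was -0.41 for Scd1, -0.05 for Srebf1, -0.04 for Acaca, -0.05 for Acly and -0.00078 for Fasn, which had -0.13 without EV 1 alone. It was -0.13 for Scd2 and -0.12 for Elovl6.

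**Figure D4:**
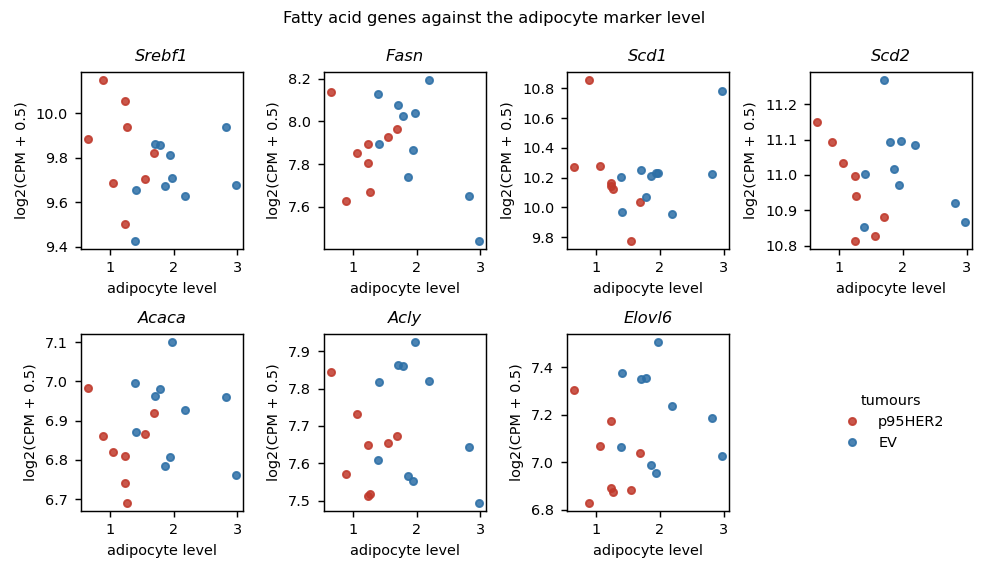
Log2(CPM + 0.5) of the 7 fatty acid genes (vertical axes, not starting at 0) against the adipocyte marker level (mean log2(CPM + 0.5) of 12 genes) in 8 p95HER2 tumours (red) and 10 EV tumours (blue). EV 1 and EV 2 lie alone at the right, above a level of 2.8, and EV 1 has the lowest Fasn level of all tumours and the highest Scd1 level of the EV tumours.

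Pearson's r and Spearman's rho with the adipocyte level were computed within each genotype, over points that share the scaling of their library, and tested by permutation (exact in p95HER2 tumours). None of the 56 correlations, 28 genes in each genotype, passed the adjustment (smallest adjusted p = 0.336 for r and 0.256 for rho, by permutation). Scd2 had r = -0.85 (exact p = 0.00737, adjusted 0.336) and rho = -0.83 (exact p = 0.0154, adjusted 0.287) within the 8 p95HER2 tumours, and r = -0.83 without p95HER2 3 and p95HER2 7. Scd1 had r = -0.68 (exact p = 0.0613, adjusted 0.336) and rho = -0.90 (exact p = 0.00456, adjusted 0.256) in the same tumours, and r = -0.95 without those 2. The other sign appeared for Scd1 in the 10 EV tumours, with r = 0.62 (permutation p = 0.0599, adjusted 0.336) and rho = 0.36 (permutation p = 0.31), but r was -0.03 without EV 1 and EV 2. Fasn had r = -0.70 (permutation p = 0.0253, adjusted 0.336) and rho = -0.48 (permutation p = 0.166) in EV tumours, and r = 0.09 without EV 1 and EV 2. Both EV values thus rest on those 2 tumours. The sterol genes had a median r of -0.40 in p95HER2 tumours and -0.53 in EV tumours, which became 0.16 in p95HER2 tumours and 0.04 in EV tumours without the 2 farthest tumours of each.

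At equal adipocyte level, 2.95% of all genes tested were called between p95HER2 and EV tumours, and again none of the 28. The log2 fold changes of the fatty acid genes then had a median of -0.16, with 5 of 7 below 0, and those of the sterol genes a median of -0.28, with 20 of 21 below 0. Over all genes the median was -0.01, with 52.3% below 0. The sterol genes varied together, so their signs are not 21 separate observations. Their median was -0.07 without the adipocyte level, and the change depends on their adipocyte coefficients. Without the 2 farthest tumours of each genotype, their median r with that level went from -0.53 to 0.04 in EV tumours. In p95HER2 tumours it went from -0.40 to 0.16. The smallest adjusted p-values were 0.0722 for Idi1 and 0.0765 for Stard4. Sc5d and Nsdhl had log2 fold changes of -0.12 and -0.11 in this fit, against 0.03 each without the adipocyte level. Hsd17b7 had 0.03 (adjusted p = 0.936), against 0.21 without it.

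The rest of the cholesterol pathway was read from lists that hold none of the 28 genes. Of 5 other synthesis genes tested none was called (median log2 fold change -0.06). Of 5 genes that retain, carry or cleave SREBPs none was called (median 0.02), with Mbtps2, the second protease, nearest at an adjusted p of 0.0697 and a log2 fold change of 0.14. Beside 5.73% of all genes tested that rose and 4.45% that fell, 1 of 5 uptake genes tested rose, Vldlr. It encodes the VLDL receptor and averaged 145 ± 19.99 CPM in p95HER2 tumours and 118 ± 9.30 CPM in EV tumours (SD, n = 8 and 10), a log2 fold change of 0.31 with an SE of 0.07 (adjusted p = 0.00861). With the adipocyte level as a covariate it was 0.22 (adjusted p = 0.216), and with the macrophage level 0.14 (0.536). Calls over all genes tested dropped as well. They numbered 981 higher and 762 lower without a covariate, 367 and 138 with the adipocyte level, and 139 and 33 with the macrophage level. A call lost under these covariates is thus the common outcome.

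Of 7 efflux and esterification genes, 1 rose and 2 fell, where 5.73% of all genes tested rose and 4.45% fell. Soat1, which esterifies cholesterol for storage, averaged 36.5 ± 2.38 CPM in p95HER2 tumours and 31.7 ± 3.10 CPM in EV tumours, with a log2 fold change of 0.21 (adjusted p = 0.028). All 8 p95HER2 tumours stood above the EV median. Nr1h3, which encodes the oxysterol receptor LXR alpha, averaged 3.13 ± 0.79 CPM in p95HER2 tumours and 5.88 ± 1.85 CPM in EV tumours, with a log2 fold change of -0.91 and an SE of 0.19 (adjusted p = 0.00496). Abcg1, an LXR target that exports sterol, averaged 9.45 ± 1.06 CPM in p95HER2 tumours and 14.7 ± 4.80 CPM in EV tumours, with a log2 fold change of -0.63 and an SE of 0.15 (adjusted p = 0.0114). Macrophages express both Nr1h3 and Abcg1. Of 10 macrophage markers 6 fell, beside 4.45% of all genes tested. Their sum was 367 to 912 CPM in p95HER2 tumours and 607 to 1396 CPM in EV tumours. With the macrophage level as a covariate the log2 fold change was -0.49 for Nr1h3 (adjusted p = 0.334) and -0.13 for Abcg1 (0.757). Of 31 alternatives, that covariate was the only one under which Nr1h3 lost its call. The macrophage level itself differed by genotype, so the 2 cannot be told apart here, and the part of macrophages was not tested. With the adipocyte level Abcg1 kept a log2 fold change of -0.60 (adjusted p = 0.111). The call of Soat1 was lost without p95HER2 1, p95HER2 5 or EV 5 (adjusted p up to 0.0552), and with the adipocyte level as a covariate its log2 fold change stayed at 0.21 (adjusted p = 0.173).

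Of 15 other fatty acid genes, 3 fell, beside 4.45% of all genes tested, none rose and the median log2 fold change was 0.00. Oxsm, the condensing enzyme of mitochondrial fatty acid synthesis, averaged 6.58 ± 0.573 CPM in p95HER2 tumours and 8.87 ± 1.2 CPM in EV tumours, with a log2 fold change of -0.43 and an SE of 0.09 (adjusted p = 0.00421). It was the only gene of these lists whose groups did not overlap, with 5.88 to 7.42 CPM in p95HER2 tumours and 7.44 to 10.9 CPM in EV tumours. Over all genes tested, 0.788% did not overlap. With the macrophage level as a covariate the log2 fold change of Oxsm was -0.42 and its call was lost (adjusted p = 0.118). Of 31 alternatives, that was the only one in which Oxsm lost its call. Acacb, the carboxylase tied to fatty acid oxidation, averaged 4.44 ± 0.905 CPM in p95HER2 tumours and 7.97 ± 3.47 CPM in EV tumours (log2 fold change -0.84, adjusted p = 0.0451). Mlxipl, which encodes the carbohydrate-responsive factor ChREBP, averaged 1.003 ± 0.527 CPM in p95HER2 tumours and 2.15 ± 0.957 CPM in EV tumours (log2 fold change -1.10, adjusted p = 0.0359). Of 6 glycerolipid genes Gpam, the first acyltransferase, fell (20.3 ± 3.45 CPM in p95HER2 tumours and 25.0 ± 2.98 CPM in EV tumours, log2 fold change -0.30, adjusted p = 0.0413). The calls of Acacb, Mlxipl and Gpam were the less firm ones, lost in 15, 10 and 10 of the 18 fits that left out 1 tumour, with adjusted p up to 0.0864, 0.0712 and 0.0747. With no filter on low counts the adjusted p was 0.0989 for Acacb and 0.0662 for Mlxipl. With the adipocyte level as a covariate their calls were lost while the log2 fold changes were no smaller, at -1.09 for Acacb (adjusted p = 0.109), -1.18 for Mlxipl (0.134) and -0.36 for Gpam (0.13). With the macrophage level Acacb had -0.74 (adjusted p = 0.398) and Mlxipl -0.70 (0.452). With the skeletal muscle level as a covariate Acacb had -0.37 (adjusted p = 0.11). Acacb was lowest in EV 1 and highest in EV 9, the tumours with the lowest and the highest muscle level. The part of muscle in the Acacb difference was not tested. None of the 12 muscle markers was called, and their sum was 384 to 3706 CPM in p95HER2 tumours and 130 to 7280 CPM in EV tumours.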

How the data were processed

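The table deposited by the authors gives unnormalized read counts for Ensembl genes, with a column for each of the 18 tumours. The submitters' processing notes name genome build mm10, STAR 2.5 and HTSeq 0.6.1, and per the labels' protocols the libraries were directional and mRNA-enriched. Neither the annotation release nor the strand option is given in the sources used. All 18 libraries had 0 counts for 22778 of the 54532 genes. Symbols and coordinates came from GENCODE M21 on the same build and matched 54409 identifiers. Faxdc2 was not analysed here.

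The genes and lists were chosen with earlier results of these data known. All 28 genes are named, as are called genes of the other lists or else the 1 with the smallest p. Erbb2 was added to these, and some genes are not reported here.

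Genes were filtered with filterByExpr (minimum count 10, minimum total 15), scaled by TMM and tested with edgeR 4.0.16 (R 4.3.3, robust quasi-likelihood F-test, Benjamini-Hochberg adjustment over 17123 genes, threshold 0.05). All adjusted p-values of single genes come from edgeR unless another test is named. A second edgeR fit added the adipocyte level. SEs and 95% intervals come from the F statistic. CPM are counts over the TMM-scaled total, TPM use the exon length of each gene, and marker levels use a pseudocount of 0.5. Replicates were numbered in accession order. Correlations used 100000 resamples in EV tumours and all 40320 pairings in p95HER2 tumours. The fits were tested on simulated counts before use. Alternatives were RLE scaling, library totals, a filter at 1 CPM or none, limma 3.58.1 (voom with quality weights), DESeq2 1.42.0, marker levels as covariates, pseudocount 1, and each tumour left out in turn. Added after seeing the data were the epithelial covariate, thinned libraries, 2 pairs of tumours left out, and the promoter letters.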

Additional observations from a re-analysis of the deposited data

Results flagged for a closer look

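In 58 groups of values examined, 1 tumour lay far from the rest of its group 4 times, where chance gives about 1 in 20. The gap between that tumour and its nearest neighbour, taken over the group's whole range, passed Dixon's 95% limit. For Scd1 this was p95HER2 4, with 1854.06 CPM against 1242.45 CPM in the next p95HER2 tumour, and EV 1, with 1761.63 CPM against 1220.08 CPM in the next EV tumour. For Pmvk it was p95HER2 7, with 47.263 CPM against 35.9 CPM in the next p95HER2 tumour. Srebf2 also had its top value in p95HER2 7, at 372.638 CPM against 312.85 CPM in the next p95HER2 tumour. p95HER2 4 and EV 1 had the lowest skeletal muscle levels of their groups (4.53 and 3.07), and p95HER2 7 had the lowest adipocyte level of all tumours (0.66). The part of these markers was not tested.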

How the results depend on the processing

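Over 31 alternatives the 28 genes gave 868 fits, of which 4 were called, all for Idi1; the fatty acid genes gave none. The sterol genes called numbered 1 with DESeq2, and 0 to 1 with 1 tumour left out. Genes called lower numbered 1162 with DESeq2. Higher and lower numbered 367 and 138 with the adipocyte covariate and 139 and 33 with the macrophage covariate. With 1 tumour left out they ranged from 786 to 1201 higher and from 489 (without p95HER2 2) to 1130 lower. Genes called for adipocyte level numbered 89 with no filter, 6 with a 1 CPM filter, 292 without EV 1 and EV 2, and 6 (without EV 1) to 15 with 1 tumour left out. At equal adipocyte level 278 genes were called without EV 1 and EV 2, and 189 (without EV 7) to 726 with 1 left out. Sterol genes called there were 0 to 2, namely Insig1 and Dhcr7 without EV 7 and Idi1 without EV 8 or EV 10.

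Log2 fold changes near 0 changed sign, and the cause was not tested. With the adipocyte covariate Sc5d had -0.12 and Nsdhl -0.11. The muscle covariate gave 0.055 for Sqle, 0.043 for Lss, 0.034 for Mvd, 0.013 for Ebp, 0.12 for Tm7sf2, 0.086 for Acat2, 0.0083 for Srebf2, 0.031 for Fasn and -0.14 for Scd1. With the macrophage covariate the values were -0.024 for Sc5d, 0.047 for Tm7sf2, -0.041 for Srebf1, 0.061 for Fasn and -0.22 for Scd1. The epithelial covariate gave 0.036 for Tm7sf2, 0.0097 for Acat2 and -0.0036 for Scd1. Without EV 1 and p95HER2 4 Scd1 had -0.030, and without EV 1 and EV 2 Sc5d had -0.025 and Nsdhl -0.032. Leaving out 1 tumour gave ranges of -0.075 to 0.025 for Acat2, -0.032 to 0.0034 for Ebp, -0.011 to 0.059 for Nsdhl, -0.11 to 0.083 for Scd1, -0.097 to 0.0019 for Sqle and -0.10 to 0.065 for Tm7sf2. Per unit of adipocyte level it gave -0.19 to 0.15 for Scd1 and -0.041 to 0.067 for Srebf1; without EV 1 and EV 2, Scd1 had -0.41 and Srebf1 -0.053. The milk level difference was 0.024 with pseudocount 1, 0.000615 with RLE scaling and -0.073 to 0.090 with 1 tumour left out, and the epithelial one -0.011 to 0.073. With 1 tumour left out the muscle difference ranged from -1.32 to -0.55 and the skin one from -0.31 to -0.16. Without the 2 farthest tumours, r with the adipocyte level was 0.64 for Fasn and 0.014 for Acly in p95HER2 tumours, and 0.095 for Fasn, -0.033 for Scd1, 0.37 for Scd2 and 0.12 for Acly in EV tumours.

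The adipocyte level difference stayed between -0.87 and -0.66 over 21 alternatives, with adjusted p up to 0.0185. No paired analysis was possible because the labels give the tumours no shared replicate numbers. With 8 and 10 tumours, differences of the size seen here, mostly under a log2 of 0.25, may not be detectable, and a p above the threshold does not show equal levels.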

Other observations

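The genes called for the adipocyte level all lay outside both pathways. Of the 10 genes called in the fit with genotype and adipocyte level, 5 were adipocyte markers (Cfd, Adipoq, Cidec, Plin1 and Retn), which went into the level itself. The others were Sema3c, Cdo1, Lor, Cyp2e1 and Cst6, picked by this same fit and named after their values were seen. Without EV 1, 6 genes in all were called for the adipocyte level. Sema3c, a secreted semaphorin, had a log2 difference of 0.54 per unit of adipocyte level with an SE of 0.07 (edgeR adjusted p = 0.000497). Cdo1, the cysteine dioxygenase that adipocytes express, had 1.34 with an SE of 0.21 (edgeR adjusted p = 0.0085). Lor, which encodes the skin protein loricrin, had 3.002 with an SE of 0.54 (edgeR adjusted p = 0.0488), and EV 1 held the highest level of both the adipocyte and the skin lists.

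Other letters in the RefSeq promoters gave a mixed account. GGGCGG, the GC box, stood in the promoters of 16 of 17 matched sterol genes (all but Pmvk) and of 2 of 5 matched fatty acid genes, on either strand, against 38.2% of all genes in the table. The E-box CACGTG, which reads the same on both strands, stood in 4 of the 17 sterol genes and in none of the 5 fatty acid genes, against 8.09% of all genes in the table.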
